A study of Mus musculus with 8 samples.

Results

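Polyamines are small positively charged molecules that bind nucleic acids and that growing cells make from ornithine and decarboxylated S-adenosylmethionine. Ornithine decarboxylase makes putrescine, and spermidine synthase and spermine synthase add aminopropyl groups from decarboxylated S-adenosylmethionine to give spermidine and then spermine. Antizymes bind ornithine decarboxylase and send it to the proteasome, and antizyme inhibitors bind the antizymes instead. Spermidine is also the donor for hypusine, an amino acid formed only in the translation factor EIF5A by deoxyhypusine synthase and deoxyhypusine hydroxylase. B cells raise polyamine synthesis when they are activated.

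The 10 genes of this pathway described here were taken by symbol from 53242 genes in the deposited tables: Odc1, Amd1, Srm and Sms for synthesis, Oaz1, Oaz2 and Azin1 for the antizyme system, Sat1 for acetylation, and Dhps and Dohh for hypusination. Each symbol matched 1 row, and all 10 passed the filter on low counts that left 14218 genes for testing.

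RNA came from B cells of the spleen of C57BL/6 mice, 8 to 12 weeks old, that were either Eif4a1 +/+ Cd23-cre (control) or Eif4a1 fl/fl Cd23-cre (called 4A1 KO). The B cells had spent 24 h with 40 ng/ml IL4 on a layer of CD40LB, a 3T3-derived feeder line that expresses CD40 ligand and human BAFF and that was removed with magnetic beads before RNA was prepared. Both genotypes carry the Cd23-cre transgene, which recombines floxed alleles in immature B cells of the spleen, so the controls differ from 4A1 KO in the floxed allele and not in Cre. Each genotype had 4 libraries, of which replicates 1 and 3 came from males, replicates 2 and 4 from females, replicates 1 and 2 from batch A and replicates 3 and 4 from batch B. Replicate 1 of both genotypes had been removed from differential expression by the study because of reduced viability, so the tests used replicates 2 to 4 (n = 3 per genotype), and the values of all 8 libraries are given beside them.

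Libraries held 31727557 to 43210858 counted reads. Eif4a1 itself, whose loxP sites flank internal exons only, fell by 0.44 ± 0.05 on the log2 scale (SE, edgeR's quasi-likelihood test, Benjamini-Hochberg adjusted p = 1.15e-04), and no 4A1 KO library reached the level of the lowest control. B cell markers (Cd79a, Cd79b, Ms4a1, Pax5 and Cd22) summed to 2874 to 3041 in controls in counts-per-million units (CPM) and to 2118 to 2430 CPM in 4A1 KO. Of these 5, 3 were called lower (Cd79a, Cd79b and Cd22) and Pax5 fell by 0.23 on the log2 scale (edgeR adjusted p = 0.00229), while Ms4a1 did not pass the test (log2 fold change 0.07, edgeR adjusted p = 0.251). Feeder cell markers (8 genes of fibroblasts, Lum at 0 in all 8 libraries) summed to 9.25 to 42.9 CPM in controls, with control 2 highest, and to 14.3 to 27.0 CPM in 4A1 KO, and 1 of the 5 tested was called higher and 1 lower. The 5 T cell markers, Cd3d, Cd3e and Cd3g among them, summed to at most 0.0999 CPM, and the 5 myeloid markers to 4.09 to 8.14 CPM in controls and 7.31 to 8.97 CPM in 4A1 KO, where 1 of 3 tested was called higher. The part of these cells in the values below was not tested. In bulk RNA, fewer cells of a type and less RNA per cell cannot be told apart.

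Amd1, Oaz1 and Oaz2 mRNAs carry a sequence through which translation of the mRNA is known to respond to polyamines. These sequences are shown because the 3 genes were all lower in 4A1 KO in the tests below, so the choice followed the result. Odc1 and Azin1 mRNAs also hold upstream reading frames, 3 each that end before the coding sequence, and neither gene was lower. Whether such sequences go with a change in mRNA was not tested. The antizyme sites were read from the GRCm39 genome at the positions of GENCODE transcripts, and the Amd1 frame from its GENCODE transcript sequence.
Amd1 upstream open reading frame, chr10:40178151-40178171, minus strand: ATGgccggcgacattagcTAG
Oaz1 frameshift site, chr10:80664117-80664143, plus strand: cggtggtgctccTGAtgtccctcaccc
Oaz2 frameshift site, chr9:65593542-65593568, plus strand: ctgtggtgctccTGAtgcccctcaccc
Capitals in Amd1 mark the start and stop codons of a reading frame of 6 codons that starts 15 bases from the annotated 5′ end of the mRNA. Capitals in Oaz1 and Oaz2 mark the stop codon that ends the first frame after 68 and 32 codons, and ribosomes that shift to the +1 frame there read on for 159 and 157 codons. Sequencing of total mRNA does not show whether ribosomes passed these sites.

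Among the 10 genes, Odc1 mRNA was higher in 4A1 KO B cells, and mRNA for the antizymes Oaz1 and Oaz2 was lower. Amd1, which makes the aminopropyl donor, was also lower, and Dohh, the second enzyme of hypusination, was slightly higher. Differences of Srm, Sms, Azin1, Sat1 and Dhps did not pass the test at an adjusted p under 0.05. A gene is described as called where it also had an absolute log2 fold change above 0.5. By that rule 1 of the 10 genes was called higher (Odc1, against 11.6% of all genes tested) and 0 lower (against 13.7%). Without the fold threshold 2 of 10 rose (Odc1 and Dohh, against 26.3% of all genes) and 3 of 10 fell (Amd1, Oaz1 and Oaz2, against 26.7%), as edgeR's adjusted p read. At these counts, the share of the 10 genes that moved was close to the share over all genes. The median log2 fold change of the 10 genes was -0.02, and that of all genes tested was 0.01.

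**Figure D1:**
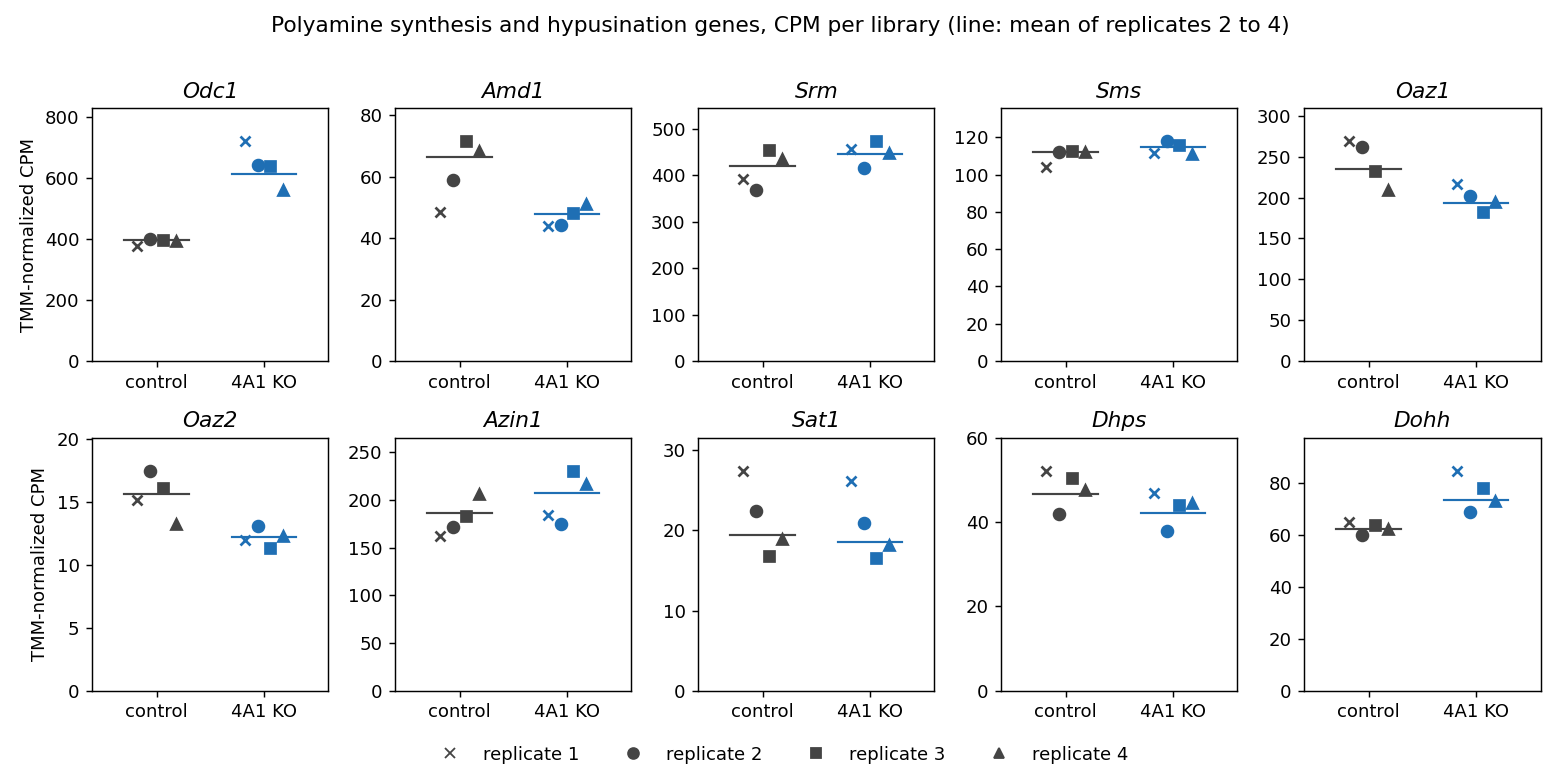
TMM-normalized CPM of the 10 genes (y axis from 0, a scale for each gene) in the 4 control and 4 4A1 KO libraries, with a symbol for each replicate and a line at the mean of replicates 2 to 4. All 4 4A1 KO libraries lie above all 4 controls for Odc1 and Dohh and below them for Oaz2, and the genotypes overlap for the other 7 genes.

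Odc1 (ENSMUSG00000011179, chr12:17594383-17601507, plus strand, 12 exons) encodes ornithine decarboxylase, the enzyme that commits ornithine to polyamines. Controls 1 to 4 had normalized counts of 377, 402, 396 and 395 CPM, and 4A1 KO 1 to 4 had 721, 643, 640 and 562 CPM. The lowest 4A1 KO library, replicate 4, was above the highest control, and the 4A1 KO libraries were more spread than the controls. In replicates 2 to 4 the mean was 398 ± 3.65 CPM in controls and 615 ± 46.2 CPM in 4A1 KO (SD, n = 3), and the log2 fold change was 0.63 ± 0.05 (SE, 95% confidence interval 0.51 to 0.74), a fold of 1.54 (edgeR's quasi-likelihood test, adjusted p = 2.64e-05). Within the 4 pairs of the same sex and batch, the log2 difference was 0.93, 0.68, 0.69 and 0.51 for replicates 1 to 4, so it was positive in 4 of 4 pairs. With replicate 1 included the log2 fold change was 0.70 ± 0.06 (SE). In transcripts-per-million units (TPM), a length-scaled level, Odc1 stood at 330 to 372 in controls and 523 to 621 in 4A1 KO, again without overlap.

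Of 8 tested copies of Odc1 elsewhere in the genome, 5 were listed as higher too at an edgeR adjusted p under 0.05, against 26.3% of all genes. All 13 copies on the sense strand (at least 90% identity over at least 100 bases, by blastn) held 714 to 1307 counts per library together, 4.73% to 5.57% of the Odc1 counts. Each of the 8 with enough counts had a positive log2 fold change (0.51 to 1.14). An example of the 5 is Gm9115, a processed pseudogene that is 96.7% identical (0.56 ± 0.10, SE, adjusted p = 0.00147). How the counting treated reads with several matches in the genome is not given in the sources used here, so reads of Odc1 and its copies cannot be told apart. Adding the counts of the copies to Odc1 gave a log2 fold change of 0.62 ± 0.05.

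Amd1 (ENSMUSG00000075232, chr10:40162797-40178185, minus strand, 8 exons) encodes S-adenosylmethionine decarboxylase, which makes the aminopropyl donor for spermidine and spermine. It was measured at 48.5, 59.1, 71.6 and 68.5 CPM in controls 1 to 4 and at 43.9, 44.2, 48.2 and 51.2 CPM in 4A1 KO 1 to 4. Control 1 was lower than the other controls and lay below 4A1 KO 4, so the genotypes overlapped over 8 libraries but not in replicates 2 to 4. Means in replicates 2 to 4 were 66.4 ± 6.49 CPM and 47.9 ± 3.51 CPM (SD, n = 3), and Amd1 fell by 0.47 ± 0.06 on the log2 scale (SE, edgeR, adjusted p = 2.28e-04), short of the fold threshold. Pair differences were -0.14, -0.42, -0.57 and -0.42 for replicates 1 to 4, negative in 4 of 4 pairs. With replicate 1 the fitted log2 fold change was -0.39 ± 0.07. Amd2, an annotated coding copy on the same chromosome with 99.6% identity, held 36 to 124 counts per library and had a log2 fold change of -0.59 ± 0.16 (SE, edgeR adjusted p = 0.0136), and the sense copies of Amd1 together held 3.24% to 5.32% of its counts. Amd1 with its copies added gave -0.47 ± 0.06.

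The aminopropyl transferases did not pass the test. Srm, spermidine synthase (ENSMUSG00000006442, chromosome 4), ranged from 369.5 to 454 CPM in controls and from 415 to 473 CPM in 4A1 KO, and its log2 fold change was 0.09 (95% confidence interval -0.01 to 0.20, edgeR adjusted p = 0.125). With replicate 1 included it was 0.12 ± 0.04 (SE, adjusted p = 0.0276), which passed, and without replicate 2 it was 0.05 (adjusted p = 0.472). The 4 pair differences of Srm were 0.22, 0.17, 0.06 and 0.05.

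Sms, spermine synthase (ENSMUSG00000071708, X chromosome), was at 104 to 113 CPM in controls and 111 to 118 CPM in 4A1 KO, with a log2 fold change of 0.03 (95% confidence interval -0.08 to 0.14, adjusted p = 0.60). That interval holds no change as large as the 0.5 threshold in either direction. Sms-ps, a processed copy on the X chromosome that matches Sms at 100% over 1101 bases, was listed with 1086 to 1805 counts per library, and the sense copies of Sms held 31.0% to 38.0% of its counts. In TPM the copy was listed at 72.9 to 92.8, above Sms itself at 60.1 to 69.7, so the level of Sms is uncertain, and its order among the genes with it. The log2 fold change of Sms-ps was -0.02 ± 0.06 (SE), and that of Sms with its copies added was 0.02 ± 0.05.

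Antizyme mRNA was lower in 4A1 KO. Oaz1 (ENSMUSG00000035242, chr10:80662516-80665124, plus strand, 5 exons), the more abundant antizyme, was at 269, 262, 233 and 209 CPM in controls 1 to 4 and at 216, 202, 183 and 194 CPM in 4A1 KO 1 to 4. Control 4, the lowest control, was below 4A1 KO 1, and each 4A1 KO library was below the control of its own pair. Oaz1 fell by 0.27 ± 0.06 on the log2 scale (SE, edgeR, adjusted p = 0.00450), from 235 ± 26.5 CPM to 193 ± 9.78 CPM (SD, n = 3). Pair differences were -0.31, -0.37, -0.35 and -0.10. The TPM of Oaz1 was 511 to 649 in controls and 462 to 473 in 4A1 KO, without overlap, and limma on log2(TPM + 1) gave -0.27 ± 0.06 (SE, adjusted p = 0.0138). Oaz1-ps, 99.9% identical over 685 bases, had 179 to 329 counts and a log2 fold change of -0.25 ± 0.12 (SE, edgeR adjusted p = 0.106).

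Oaz2 (ENSMUSG00000040652, chr9:65575283-65597582, plus strand, 5 exons), a second antizyme, was measured from 379 to 706 counts per library. Controls 1 to 4 gave 15.1, 17.5, 16.1 and 13.2 CPM, and 4A1 KO 1 to 4 gave 12.0, 13.1, 11.4 and 12.3 CPM. No 4A1 KO library reached the lowest control, although control 4 and 4A1 KO 2 were 13.2 and 13.1 CPM. Oaz2 fell by 0.34 ± 0.10 on the log2 scale (SE, edgeR, adjusted p = 0.0185). It no longer passed the test without either of 2 replicates, as the adjusted p was 0.0996 without replicate 2 and 0.121 without replicate 3, with log2 fold changes of -0.31 and -0.26. The adjusted p was 0.0700 without the block of batch and sex. Pair differences were -0.34, -0.42, -0.50 and -0.11.

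Azin1, the antizyme inhibitor (ENSMUSG00000037458, chromosome 15), was at 162, 172, 183 and 206 CPM in controls 1 to 4 and at 184, 175, 231 and 216 CPM in 4A1 KO 1 to 4. The genotypes overlapped, and replicate 3 of 4A1 KO was the highest library. The log2 fold change was 0.14 (95% confidence interval -0.000497 to 0.29, edgeR adjusted p = 0.0866), with pair differences of 0.18, 0.03, 0.33 and 0.07. It passed with all 8 libraries (0.15 ± 0.05, SE, adjusted p = 0.0300) and without replicate 4 (0.18, adjusted p = 0.0377), while without replicate 3 it was 0.05 (adjusted p = 0.539). In TPM the change of Azin1 was 0.26 ± 0.09 (SE, limma, adjusted p = 0.0551). The side of the threshold thus depended on the libraries used for Azin1, as it did for Oaz2 and Srm.

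Sat1, which acetylates spermidine and spermine for export or breakdown (ENSMUSG00000025283, X chromosome), varied more between replicates than between genotypes. It was at 27.4, 22.4, 16.8 and 18.9 CPM in controls 1 to 4 and at 26.2, 20.9, 16.5 and 18.1 CPM in 4A1 KO 1 to 4. Replicate 1 was highest and replicate 3 lowest in both genotypes. The log2 fold change was -0.06 (95% confidence interval -0.24 to 0.11, edgeR adjusted p = 0.519). In TPM the change of Sat1 was larger, -0.17 ± 0.06 (SE, limma, adjusted p = 0.0600), and also did not pass.

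**Figure D2:**
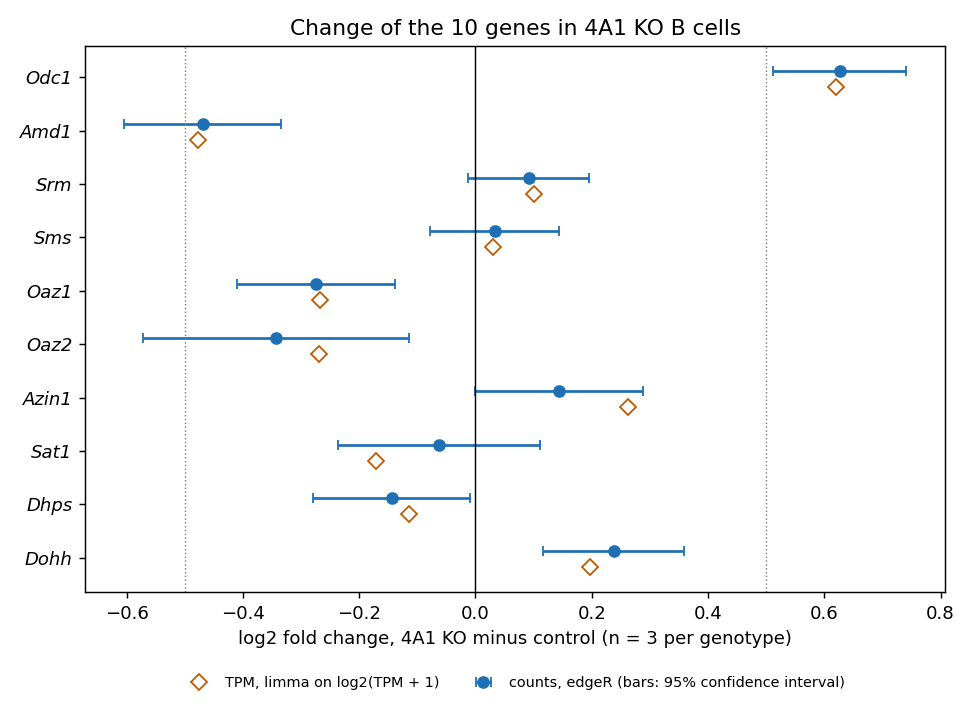
Log2 fold change of the 10 genes, 4A1 KO minus control, from replicates 2 to 4 (n = 3 per genotype). Circles with bars are edgeR estimates from counts with 95% confidence intervals, open diamonds are limma estimates from log2(TPM + 1) without bars, and dotted lines mark -0.5 and 0.5. Odc1 lies beyond 0.5 at 0.63, Amd1 at -0.47 lies just inside -0.5, and the intervals of Srm, Sms, Azin1 and Sat1 include 0.

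Of the hypusination enzymes, Dohh rose and Dhps did not pass the test. Dohh, deoxyhypusine hydroxylase (ENSMUSG00000078440, chr10:81220240-81224186, plus strand, 5 exons), was at 65.2, 60.0, 64.0 and 62.5 CPM in controls 1 to 4 and at 84.8, 68.9, 78.2 and 73.1 CPM in 4A1 KO 1 to 4. Every 4A1 KO library was above every control. The means were 62.2 ± 2.01 CPM and 73.4 ± 4.64 CPM (SD, n = 3), and Dohh rose with a log2 fold change of 0.24 ± 0.05 (SE, edgeR, adjusted p = 0.00530), with pair differences of 0.38, 0.20, 0.29 and 0.22. Gm48551, an annotated gene on the same strand that overlaps Dohh, was listed with 1839 to 2396 counts, up to 77.1% of those of Dohh in a library, and with a log2 fold change of 0.23 ± 0.06 (SE). Its TPM was at most 5.79, against 80.0 to 109 for Dohh, so the counts of these genes cannot be told apart. In TPM, where Dohh was also higher without overlap, the change of Dohh was 0.20 ± 0.05 (SE, limma, adjusted p = 0.0180), and its adjusted p was 0.1001 without replicate 3, 0.0512 without replicate 4 and 0.0986 without the block of batch and sex.

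Dhps, deoxyhypusine synthase (ENSMUSG00000060038, chr8:85798354-85804348, plus strand, 9 exons), performs the first step, the transfer from spermidine to EIF5A. Controls 1 to 4 stood at 52.2, 41.8, 50.6 and 47.5 CPM and their 4A1 KO partners at 46.9, 37.8, 44.2 and 44.6 CPM. The genotypes overlapped, but each 4A1 KO library was below its paired control, with differences of -0.15, -0.15, -0.20 and -0.09. The log2 fold change was -0.14 (95% confidence interval -0.28 to -0.01), and the adjusted p of 0.0697 (edgeR) missed the threshold. With all 8 libraries the log2 fold change was -0.15, and the adjusted p was 0.0796 with batch and sex in the fit and 0.0231 with the replicate as a block. Wdr83 overlaps Dhps on the opposite strand with 608 to 879 counts, and counting was stated to use strand. The substrate of both enzymes, Eif5a, was at 2044 ± 107 CPM in controls and 2016 ± 98.1 CPM in 4A1 KO (SD, n = 3), with a log2 fold change of -0.02 ± 0.04 (SE, edgeR adjusted p = 0.724). Its paralog Eif5a2 was at 20.1 ± 0.470 CPM and 17.9 ± 0.763 CPM, with a log2 fold change of -0.16 ± 0.08 (SE, edgeR adjusted p = 0.110).

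The same genes moved in TPM, which the authors computed separately from the alignments. By limma on log2(TPM + 1), 2 of the 10 genes rose (against 24.1% of 12976 genes tested) and 3 fell (against 26.6%). Over all 8 libraries, 2 genes were higher in every 4A1 KO library than in every control in CPM (Odc1 and Dohh, against 17.2% of genes), 1 was lower (Oaz2, against 19.6%) and 7 overlapped. In TPM Oaz1 and Oaz2 were lower without overlap (2 of 10, against 19.7% of 12976 genes).

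Ratios within a library do not depend on scaling between libraries, and they set the antizyme mRNA against that of its target. Odc1 to Oaz1, as a ratio of TPM, was 0.509, 0.573, 0.658 and 0.729 in controls 1 to 4, and it was 1.31, 1.23, 1.26 and 1.13 in their 4A1 KO partners. As listed, every control had less Odc1 than Oaz1 mRNA and every 4A1 KO library had more. Oaz1-ps, which may share reads with Oaz1, was listed at 129 to 165 TPM in controls and 104.9 to 126 TPM in 4A1 KO, and copies of Odc1 had TPM of their own, so on which side of 1 the ratio lies in 4A1 KO is uncertain. The mean log2 ratio differed by 1.01 between the genotypes (n = 4 each), a fold of 2.01. Odc1 to Oaz2 was 17.6 to 22.6 in controls and 33.9 to 44.7 in 4A1 KO, a fold of 1.99. Both ratios combine a higher numerator with a lower denominator, and they were not tested.

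Some other ratios also separated the genotypes, but Odc1 and Dohh separated them alone, so their ratios in part restate those genes. None of these ratios was tested, and the share of other gene pairs that separate was not computed. Odc1 to Amd1 was 6.34 to 8.76 in controls and 12.7 to 18.7 in 4A1 KO (fold 2.15). Odc1 to Sat1, synthesis against acetylation, was 8.09 to 12.6 in controls and 14.8 to 22.7 in 4A1 KO (fold 1.76). Sat1 itself did not pass the test, so that ratio largely follows Odc1. Amd1 to Srm was 0.0702 to 0.0889 in controls and 0.0535 to 0.0627 in 4A1 KO (fold 0.688). For hypusination, Dohh to Dhps was 1.07 to 1.27 in controls and 1.37 to 1.55 in 4A1 KO (fold 1.29). By contrast Srm to Sms overlapped, at 7.76 to 9.54 and 8.40 to 9.81, and Azin1 to Oaz1 overlapped at 0.110 to 0.173 and 0.160 to 0.235.

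**Figure D3:**
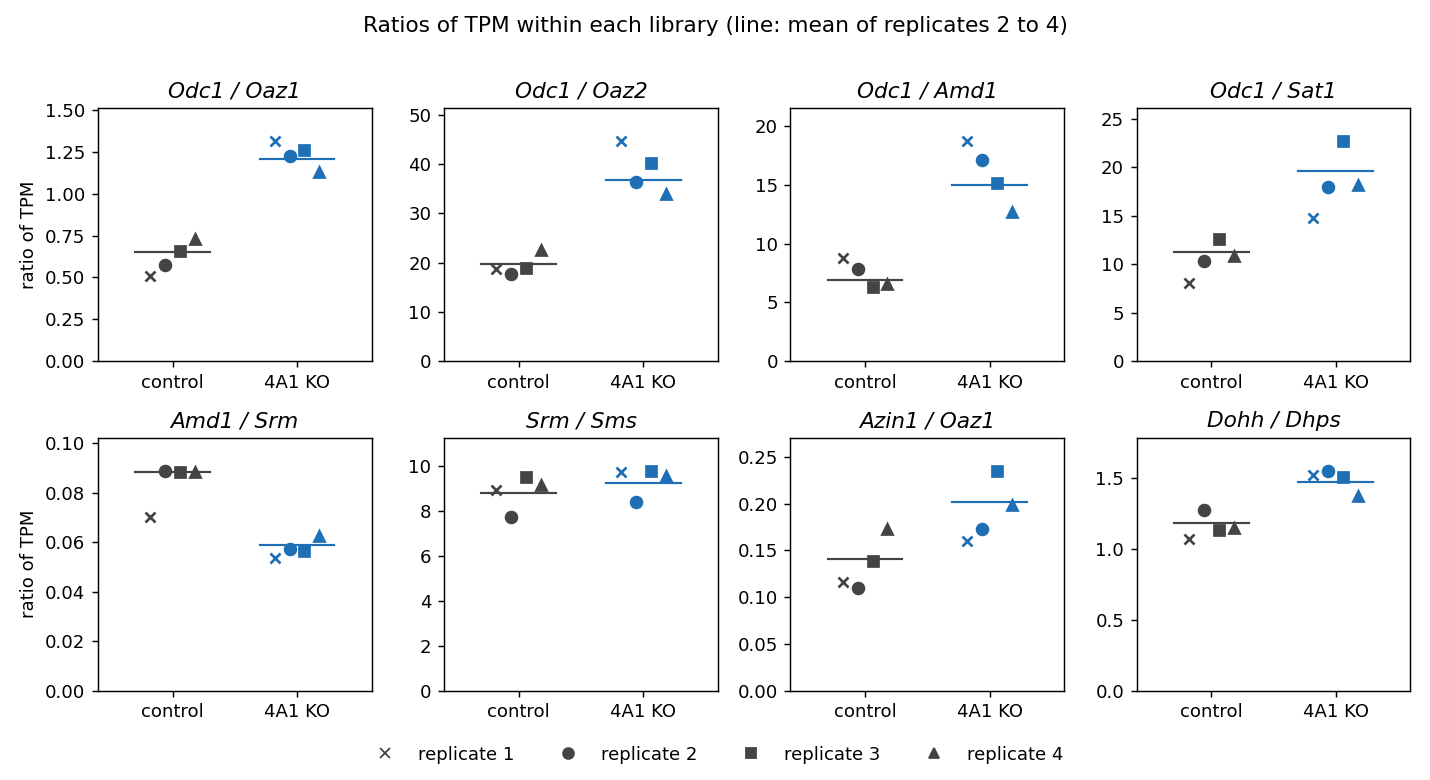
Ratio of TPM between genes within each library (y axis from 0, a scale for each ratio), with a symbol for each replicate and a line at the mean of replicates 2 to 4. The genotypes do not overlap for ratios with Odc1, for Amd1 to Srm or for Dohh to Dhps, and they overlap for the others. Odc1 and Dohh alone already separate these libraries. Odc1 to Oaz1 as listed lies below 1 in controls and above 1 in 4A1 KO.

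The order of the mRNA levels, as median TPM over 4 libraries, was Srm, Oaz1, Odc1, Dohh, Dhps, Azin1, Sms, Amd1, Sat1 and Oaz2 in controls, from 588 for Srm to 18.3 for Oaz2. Srm and Oaz1 overlapped across libraries, as did Dhps with Azin1, Azin1 with Sms, and Amd1 with Sat1. In 4A1 KO the order was Srm, Odc1, Oaz1, Dohh, Azin1, Dhps, Sms, Amd1, Sat1 and Oaz2, from a median of 638 for Srm. There Srm overlapped with Odc1, Dohh with Azin1, Dhps with Sms, and Amd1 with Sat1. Odc1 and Oaz1 exchanged places and did not overlap in either genotype, within the limit set by their copies.

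The effect of genotype was set against sex and batch as interaction terms over the 8 libraries. No gene of the 10 differed by sex or by batch after adjustment over 14211 genes (edgeR, adjusted p of 0.999 or more for every gene), and 0 genes of all tested passed by sex and 1 by batch. Before adjustment, 1 of the 20 differences (10 genes, 2 terms) passed 0.05, that of Azin1 by sex, where the genotype effect was larger in males by 0.21 ± 0.09 on the log2 scale (SE, edgeR adjusted p = 1). For Odc1 the difference was 0.22 ± 0.10 (males minus females, SE) and -0.20 ± 0.11 (batch B minus batch A). With 4 libraries per genotype such differences could be estimated only with these errors.

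The 5′ UTRs of these mRNAs were read from the canonical GENCODE transcripts, because EIF4A1 is a helicase that unwinds 5′ UTRs for scanning ribosomes. Among 11349 tested genes with a coding transcript, the median 5′ UTR was 231 bases long with 65% GC, and 60.4% held at least 1 upstream ATG. Odc1 had 594 bases with 72.6% GC and 3 upstream ATGs, and Azin1 the longest of the 10, 865 bases with 60.3% GC and 3 upstream ATGs. Amd1 had 331 bases with 42.3% GC, the lowest GC of the 10, and its single upstream ATG is that of the reading frame shown above. Oaz1 had 74 bases, Dhps 120 and Srm 137, each with 0 upstream ATGs. Sms had 347 bases with 5 upstream ATGs, Sat1 288 with 2, Oaz2 228 with 2 and Dohh 207 with 3. The 3 genes that fell thus spanned 74 to 331 bases, and the 2 that rose 207 and 594 bases.

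Genes around the pathway were counted from 6 lists with 34 genes, of which 20 had enough counts. They were called higher in 3 cases (Slc7a1, Slc12a8 and Slc3a2) and lower in 4 (Oat, Adi1, Atp13a2 and Mtap), against the 11.6% and 13.7% of all genes, and 13 were not called. Without the fold threshold 6 rose (against 26.3% of all genes) and 7 fell (against 26.7%). The median log2 fold change of the 20 was -0.15.

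Ornithine supply was mixed. Slc7a1, the cationic amino acid transporter that imports arginine and ornithine, rose in all 4 pairs, from 278 to 342 CPM in controls to 458 to 556 CPM in 4A1 KO (log2 fold change 0.68 ± 0.06, SE, edgeR adjusted p = 3.98e-05). Oat, the mitochondrial aminotransferase that interconverts ornithine and glutamate semialdehyde, fell from 217 to 239 CPM to 132 to 151 CPM (-0.67 ± 0.06, adjusted p = 3.46e-05). Aldh18a1, which makes glutamate semialdehyde from glutamate, was 0.46 ± 0.05 higher (adjusted p = 8.36e-05), below the fold threshold. Slc25a15, which carries ornithine across the mitochondrial membrane, fell by 0.20 ± 0.06 on the log2 scale (adjusted p = 0.0286). Both were named after their values were seen, like Mat2a below. The remaining 5 of the 9 genes of this list had too few counts to be tested.

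Of the 7 tested genes for S-adenosylmethionine supply and methionine salvage, 4 fell and 1 rose at an adjusted p under 0.05, where 26.7% of all genes fell and 26.3% rose. Mtap, the phosphorylase that removes the methylthioadenosine left over by Srm and Sms, was at 171 to 211 CPM in controls and 123 to 148 CPM in 4A1 KO (-0.50 ± 0.06, SE, edgeR adjusted p = 1.26e-04). Its log2 fold change of -0.504 was just past the fold threshold. Adi1, a later enzyme of the salvage, was at 44.4 to 49.9 CPM in controls and 27.8 to 31.7 CPM in 4A1 KO (-0.66 ± 0.06, adjusted p = 4.48e-05). Both were lower without overlap in 8 libraries. The exception was Mat2a, which makes S-adenosylmethionine from methionine, higher by 0.50 ± 0.05 (adjusted p = 6.00e-05), a value that lies on the fold threshold without passing it.

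Of the 4 tested polyamine and amino acid transport genes, 3 rose and 1 fell at an adjusted p under 0.05, where 26.3% of all genes rose and 26.7% fell. Slc3a2, the heavy chain of amino acid transporters that has also been linked to polyamine export, was at 268 to 375 CPM in controls and 385 to 550 CPM in 4A1 KO (0.53 ± 0.06, SE, edgeR adjusted p = 1.77e-04). Atp13a2, the lysosomal polyamine exporter, fell from 33.0 to 40.7 CPM to 22.1 to 26.5 CPM (-0.55 ± 0.08, adjusted p = 4.51e-04). Atp13a3, of the same list, was 0.27 ± 0.05 higher (edgeR adjusted p = 0.00197), below the fold threshold and with overlap over 8 libraries. It was named after its values were seen. Slc12a8 was called higher at a level near 1 CPM (0.65 ± 0.23, adjusted p = 0.0414). The oxidases Smox and Paox were low, at means of 0.430 and 4.04 CPM in controls, and did not pass (adjusted p = 0.315 and 0.269), nor did the antizyme inhibitor Azin2 at 0.780 CPM (adjusted p = 0.343).

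**Figure D4:**
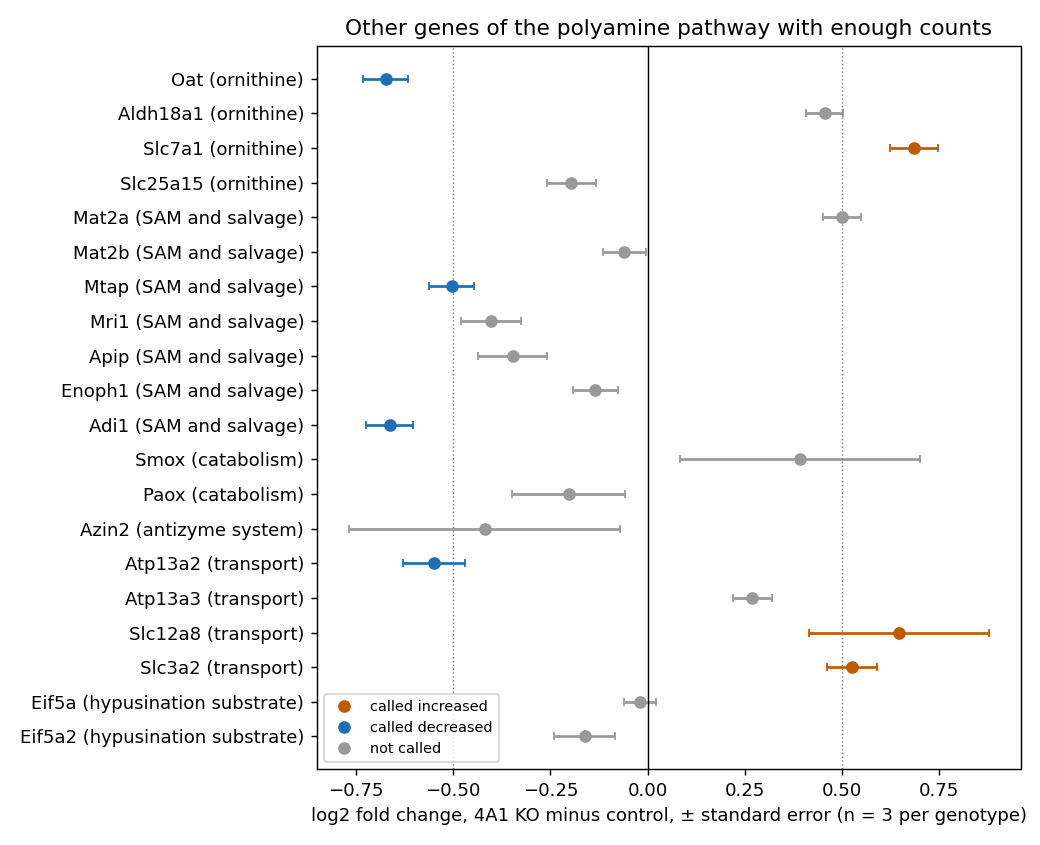
Log2 fold change with its standard error (edgeR, replicates 2 to 4, n = 3 per genotype) of the 20 tested genes around the pathway, labelled by list, with dotted lines at -0.5 and 0.5. Slc7a1, Slc12a8 and Slc3a2 lie above 0.5, Oat, Adi1, Atp13a2 and Mtap lie below -0.5, and Eif5a lies at -0.02.

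The genes most like Odc1 over the 8 libraries, by Pearson's r of log2 CPM, were Dnajc2 (0.995), Rbm17 (0.995), Uap1 (0.993), Trip4 (0.992) and Gm18860 (0.991), and 947 genes had an r above 0.9. For Dhps they were Gm19951 (0.968), Apol8 (0.965), Gm15446 (0.965), Gpn1 (0.960) and Auh (0.958), and 31 genes had an r above 0.9. These 8 points share genotype, sex and batch, so the likeness of a gene that separates the genotypes includes that separation, and the values are a description.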

How the data were processed

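The authors trimmed reads with Trim Galore 0.6.6, mapped them to GRCm39 with HISAT2 2.1.0 and deposited raw counts per gene from Seqmonk (merged isoforms, opposing strand-specific paired reads). The deposited TPM came from StringTie 2.1.1. Genotype, sex, batch and replicate were taken from the labels.

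Counts were fitted in R 4.3.3 with edgeR 4.0.16 (filterByExpr, TMM, quasi-likelihood test with batch, sex and genotype) on 6 libraries, where batch and sex equal a replicate block. TPM were fitted with limma 3.58.1 on log2(TPM + 1) over 12976 genes whose mean TPM was 1 or more. Tests are two-sided with Benjamini-Hochberg adjustment over all genes. Labels pair same-numbered libraries by sex and batch, and their deviations correlated at 0.43 to 0.59 across genes. Copies were found with blastn 2.17.0. The code was tested on simulated data. Alternatives used DESeq2 1.42.0, other normalizations, filters, pseudocounts and library sets. Per-library totals limit precision, and SDs are between libraries. Per the study, replicates were separate mice.

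The members, gene lists and rules were chosen with earlier results of these data known. Named are the 10 genes, called genes of each list (the 3 with the smallest adjusted p where none was called), near-identical copies, and the 5 genes most like Odc1 and Dhps. Protein sequences were not used here. Some genes of the lists are not reported here, and the summed marker levels of B cells hold only the genes named.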

Additional observations from a re-analysis of the deposited data

Results flagged for a closer look

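Of 20 groups of 4 libraries (10 genes in 2 genotypes), 1 held a library far from the others, and chance alone gives about 1 in 20. Sms in control 1 was at 104 CPM against 112 CPM in the nearest control, a gap of 0.911 of the range of the 4 controls. Control 1 was not among the libraries tested in replicates 2 to 4.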

How the results depend on the processing

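Of 126 alternative values for the 10 genes in counts, 113 kept their direction and side of the threshold, 7 no longer passed and 6 newly passed, and of 70 in TPM 60 kept both, 8 no longer passed and 2 newly passed. None reversed. Odc1 passed in every alternative (log2 fold change 0.60 to 0.70 in counts). Shares over all genes in the same fit stand in parentheses. With all 8 libraries 4 genes rose in counts, with batch and sex (27.8%) or with a replicate block (29.2%). In the same fits 3 genes fell with batch and sex (28.7%) and 4 with a replicate block (29.6%). Tested against a log2 fold change of 0.5 (glmTreat), 1 of the 10 genes rose (4.5%) and 0 fell (6.94%), and 1 and 2 of the 20 other pathway genes were called higher and lower. In TPM 1 gene rose with no replicate block (15.5%), and 1 to 2 when replicates were left out in turn (15.5% to 21.1%), while 1 fell without the filter on low TPM (9.6%), where the adjusted p of Oaz1 was 0.0817. Leaving out replicates gave 2 to 3 other pathway genes called higher (9.71% to 12.1%) and 3 to 4 lower (11.8% to 14.6%). DESeq2 with normal shrinkage called 2 of these genes higher (5.11%) and 3 lower (7%). Upper quartile normalization called 4 higher (12.4%) and 3 lower (13%). All 8 libraries with batch and sex called 4 higher (11.4%) and 3 lower (14.2%). Below every control were 2 genes in TPM (19.7%) and 3 in replicates 2 to 4 alone (25.4%), against 1 in CPM of 8 libraries (19.6%). The cause was not tested. No replicate block left 2 genes that rose (17.2%) and 2 that fell (18.6%) in counts. Summing copies into their gene, an alternative added after the data were seen, moved no gene across the threshold. Low counts (Oaz2) limit precision, and whether reads were shared with a copy (Sms) or an overlapping gene (Dohh) was not tested.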

Other observations

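Eif5al3-ps, a processed copy with 97.2% identity to Eif5a over 434 bases on chromosome 5, had 17, 24, 36 and 26 counts in controls 1 to 4 and 617, 750, 745 and 604 counts in 4A1 KO 1 to 4. Its log2 fold change was 4.65 ± 0.15 (SE, edgeR's quasi-likelihood test, adjusted p = 3.30e-06), whereas Eif5a, with 2848 TPM on average in controls, stood at -0.02. In TPM the copy was listed at 14.98 to 17.3 in controls and 84.7 to 106 in 4A1 KO, a smaller difference than in counts. The copy was named after its values were seen, and it held at most 0.92% of the counts of Eif5a. Gm18860, the only gene among the 5 most like Odc1 with a log2 fold change above 1, had 3.48.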
